A study of Mus musculus with 6 samples.

Results

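The genes described here make ribosomes and polyamines. They are 42 listed genes out of 34745 in the deposited tables: 4 enzymes of polyamine synthesis, 5 genes of RNA polymerase I (Pol I) and its factors, 4 nucleolar phosphoproteins, 3 proteins of box C/D and 4 of box H/ACA small nucleolar ribonucleoproteins (snoRNPs), 9 factors of the small and 10 of the large ribosomal subunit, and 2 nucleolar RNA helicases with Mybbp1a. They were chosen by name as typical targets of the transcription factor Myc, and all 42 had a row in the 6 libraries. RNA was sequenced from CD8+ T effector cells (Teff), 3 libraries of WT and 3 of Scd-1-/- mice, each genotype with replicates numbered 1, 2 and 3. Scd-1 is the desaturase that makes monounsaturated fatty acids, and the study asked how its loss bears on the differentiation and function of Teff. The Scd-1-/- mice were of the strain B6.129-Scd1tm1Ntam/J and had been donated, whereas the WT mice were C57BL/6J and had been bought, so genotype and mouse source cannot be told apart. Male mice of 6 to 8 weeks were used. Both groups of splenic CD8+ T cells were given the same culture, with 5 μg/mL anti-CD3, 0.5 μg/mL anti-CD28 and 100 U/mL IL-2 for 3 days, then IL-2 without antibodies for 3 days, and RNA was taken on day 6. What a replicate number stands for, and whether the libraries came from separate mice, was not given in the sources used here, so the p-values measure only the spread between these libraries.

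Ribosome synthesis starts in the nucleolus, where Pol I copies the ribosomal DNA into a long precursor RNA. SnoRNPs guide the methylation and pseudouridylation of this precursor, and a large set of assembly factors and helicases cuts it and folds it into the small and the large subunit. The polyamines putrescine, spermidine and spermine bind RNA and ribosomes, and spermidine is the source of hypusine, the modified residue of the translation factor eIF5A. T cells raise both programmes when they leave quiescence and grow, and Myc drives many of the genes in both by binding the E-box CACGTG.

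Promoter sequences are shown first because Myc is known to bind this E-box, and the shares below are a description with no test. In the RefSeq promoter windows (GRCm38.p6, from 250 bases before to 50 bases after the transcription start, 300 bases in all), 34 of the 42 members were matched. CACGTG, which reads the same on both strands, was found in a window of 8 of these 34 members (23.53%), of 12.32% of the 7105 matched genes that were tested for expression, and of 8.093% of the 27025 genes in the table. The 8 members are Rrn3, Nop2, Utp20, Mybbp1a, Ltv1, Pes1, Wdr43 and Sms. These 5 windows are shown because their genes span the range of behaviour in these libraries, from Utp20, with the largest gap between libraries of different replicate number, to Sms, whose 6 libraries were close together. Capitals mark CACGTG, and each line runs 5′ to 3′ on the strand of the gene. Rrn3 lies at chr16:13780449-13780748 (plus strand), with E-boxes that begin 215 and 48 bases before the start. Nop2 lies at chr6:125131633-125131932 (plus strand), with an E-box 60 bases before the start. Utp20 lies at chr10:88826765-88827064 (minus strand) and Mybbp1a at chr11:72441077-72441376 (plus strand), with E-boxes 37 and 40 bases after the start. Sms lies at chrX:157492238-157492537 (minus strand), with an E-box 196 bases before the start.
Rrn3: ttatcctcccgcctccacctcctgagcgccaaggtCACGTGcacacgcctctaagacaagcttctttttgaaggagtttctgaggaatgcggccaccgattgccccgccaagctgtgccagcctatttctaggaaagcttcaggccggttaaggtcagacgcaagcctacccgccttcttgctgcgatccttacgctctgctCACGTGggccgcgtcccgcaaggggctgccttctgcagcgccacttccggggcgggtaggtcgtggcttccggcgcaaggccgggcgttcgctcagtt
Nop2: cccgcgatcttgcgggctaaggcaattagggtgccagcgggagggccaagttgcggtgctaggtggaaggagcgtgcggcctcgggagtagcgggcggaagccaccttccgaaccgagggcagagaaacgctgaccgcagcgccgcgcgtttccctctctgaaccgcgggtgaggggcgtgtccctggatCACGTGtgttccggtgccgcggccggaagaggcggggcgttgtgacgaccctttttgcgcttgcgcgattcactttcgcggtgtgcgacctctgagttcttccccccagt
Utp20: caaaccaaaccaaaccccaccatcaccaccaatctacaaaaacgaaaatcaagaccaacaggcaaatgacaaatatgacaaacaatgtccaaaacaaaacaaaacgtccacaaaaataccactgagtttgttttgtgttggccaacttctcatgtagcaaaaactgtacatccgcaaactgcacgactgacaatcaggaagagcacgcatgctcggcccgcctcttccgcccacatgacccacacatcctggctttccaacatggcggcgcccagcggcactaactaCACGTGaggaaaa
Mybbp1a: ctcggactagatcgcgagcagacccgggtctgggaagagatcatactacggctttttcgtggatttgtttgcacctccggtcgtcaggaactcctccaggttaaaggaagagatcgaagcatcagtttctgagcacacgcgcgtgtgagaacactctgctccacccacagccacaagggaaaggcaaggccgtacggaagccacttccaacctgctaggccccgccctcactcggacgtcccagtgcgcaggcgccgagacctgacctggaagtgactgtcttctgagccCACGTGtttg
Sms: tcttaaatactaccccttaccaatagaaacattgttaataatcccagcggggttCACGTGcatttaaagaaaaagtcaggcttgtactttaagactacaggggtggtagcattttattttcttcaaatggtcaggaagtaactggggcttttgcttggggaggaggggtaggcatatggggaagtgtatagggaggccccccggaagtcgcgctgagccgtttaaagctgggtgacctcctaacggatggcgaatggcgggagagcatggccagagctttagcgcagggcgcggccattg
A match describes the letters of the window and was not tested as a binding site in these cells.

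Each library held between 14034479 and 15866216 counts, and a count of 0 allows up to 3 counts. Levels are given as FPKM (counts scaled to gene length and to the total of the library), in the order of replicates 1, 2 and 3. The genotype labels were checked first with Scd1. Scd1 read 58.2, 45.3 and 54.7 FPKM in the WT libraries and 0.398, 0.528 and 0.261 FPKM in the Scd-1-/- libraries, from 30, 36 and 20 counts in the latter. All 3 Scd-1-/- libraries lay far below all 3 WT libraries, with a log2 fold change of -7.04 (SE 0.28, edgeR quasi-likelihood adjusted p = 0.00011). The 6 listed markers of CD8 T cells were present, with a summed level between 1837 and 2379 FPKM. That sum includes Cd3d, Cd3e, Cd3g and Trac, which are not particular to CD8 T cells. Cd8a read between 27.9 and 47.6 FPKM and Cd8b1 between 202 and 330 FPKM. Cd4, Cd40lg and Foxp3 summed to at most 0.672 FPKM, and Ms4a1 and Pax5, markers of B cells, were at 0 in every library, whereas Cd79b, another, read between 3.13 and 10.7 FPKM. In bulk RNA, fewer cells that express a gene and less RNA per cell cannot be told apart.

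None of the 42 members was called different between Scd-1-/- and WT Teff. A call is a Benjamini-Hochberg adjusted p under 0.05 in edgeR's quasi-likelihood test, fitted to the 9627 genes whose FPKM averaged 1 or more, and this test called 0.114% of all genes. Likewise, 0 members were called by DESeq2's Wald test (2.76% of all genes), 0 by limma on log2(FPKM + 1) (0.177%), and 0 passed the study's own thresholds, which ask for a log2 change of 1 or more in either direction at p under 0.001 (0.738%). At an unadjusted p under 0.05, 2 members were higher in Scd-1-/- Teff, Npm1 and Gnl2 (5.42% of all genes), and 0 were lower (4.68%), against 10.1% of all genes in either direction. The log2 fold changes of the 42 members ran from -0.39 (Polr1b) to 0.46 (Npm1), with a median of -0.06 beside a median of -0.0005 over all tested genes, and 25 of the 42 were below 0. With 1 library left out at a time, the value of Polr1b ran from -0.74 without WT replicate 1 to -0.07 without Scd-1-/- replicate 1, and that of Npm1 from 0.33 to 0.56.

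The intervals narrowed when the replicate number was kept in the model. Replicate 1 held lower levels of most members in both genotypes, and the median SE of a member's log2 fold change was 0.252 without a term for the replicate number and 0.110 with the number as a block. With the block, 0 of 42 members were called (4.7% of all genes), while at an unadjusted p under 0.05 there were 3 higher (11.3% of all genes) and 5 lower (11.2%), or 22.4% of all genes in either direction. The 95% interval of the log2 fold change lay within 1 of 0 for 34 of the 42 members without the block and for 42 with it, and within 0.5 of 0 for 36 members with the block. For these 36 genes, a change by genotype of more than 0.5 on the log2 scale is outside the interval of the blocked fit.

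**Figure D1:**
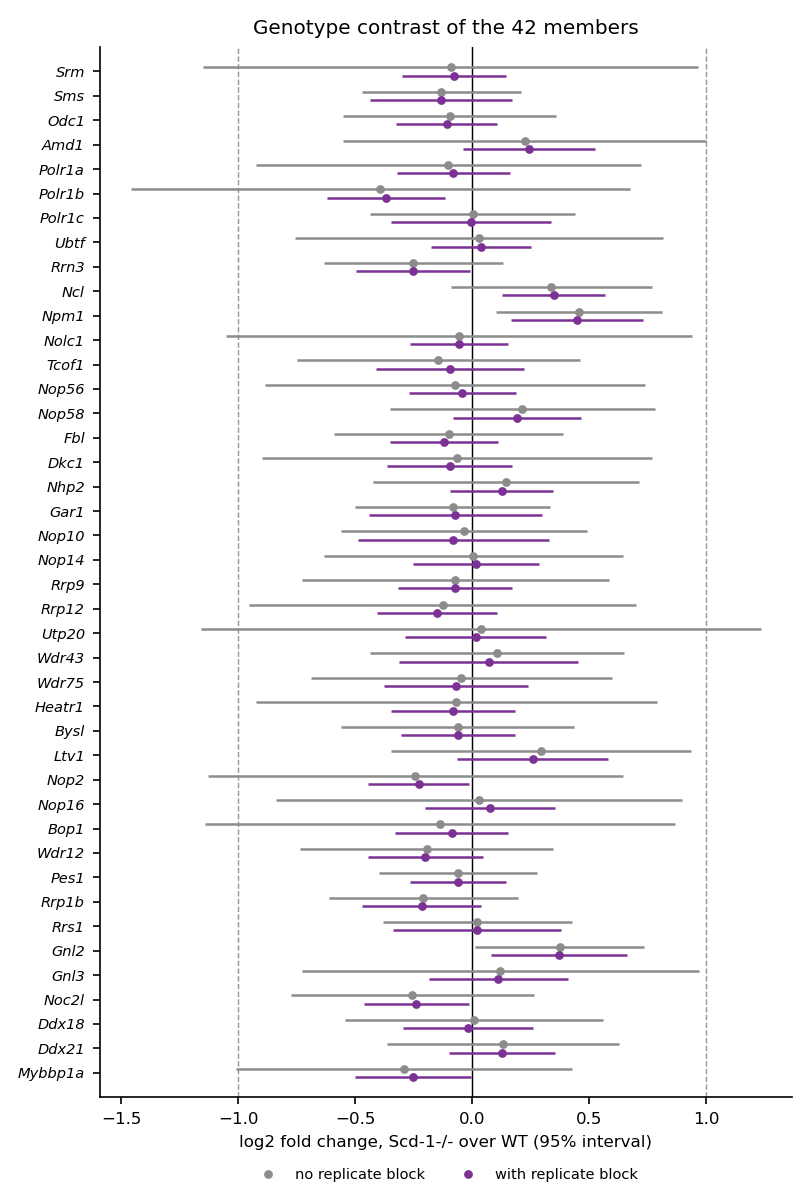
Log2 fold change of each of the 42 members, Scd-1-/- over WT, from edgeR without (grey) and with (purple) the replicate number as a block. Points are estimates, lines are 95% intervals, and dashed lines mark -1 and 1. All 42 purple intervals lie between the dashed lines, 34 grey ones do, and Npm1 has the estimate farthest to the right.

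Of the 4 polyamine enzymes, 0 were called by genotype, and 3 had their lowest level in replicate 1 of both genotypes. Odc1, ornithine decarboxylase, catalyses the first and rate-limiting step. Odc1 read 183, 251.5 and 249 FPKM in WT and 156, 241.5 and 229.8 FPKM in Scd-1-/- libraries, with means of 228 ± 39.05 and 209 ± 46.3 (SD, n = 3). Replicate 1 was the lowest library of each genotype, and the genotypes overlapped. The log2 fold change by genotype was -0.10 (SE 0.20, edgeR adjusted p = 0.928), with a 95% interval of -0.32 to 0.11 in the blocked fit.

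Srm, spermidine synthase, adds the aminopropyl group that turns putrescine into spermidine. Its level was 32.8, 89.1 and 93.15 FPKM in WT and 32.3, 84.3 and 80.85 FPKM in Scd-1-/- libraries. The pair of replicate 1 libraries was nearly level, and so were the other 4 libraries at a far higher level, so replicates 2 and 3 together stood 2.69-fold above replicate 1 in WT and 2.54-fold above it in Scd-1-/- Teff on TMM-scaled values (library totals adjusted for composition by edgeR), the scale of every such fold given here. By genotype, Srm differed by -0.09 on the log2 scale (95% interval -1.15 to 0.96, and -0.30 to 0.14 with the block).

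Amd1, S-adenosylmethionine decarboxylase, supplies those aminopropyl groups. Amd1 gave 7.22, 11.6 and 16.6 FPKM in WT and 8.915, 14.4 and 17.1 FPKM in Scd-1-/- libraries, again with replicate 1 lowest in each genotype and with overlapping genotypes. These values are uncertain, since the longest transcripts of Amd1 and its copy Amd2 are 99.44% identical and reads could be split between them. Sms, spermine synthase, was the exception among the 4 enzymes. Sms read 4.68, 4.39 and 4.58 FPKM in WT and 3.78, 4.43 and 4.05 FPKM in Scd-1-/- libraries, with no library standing apart (edgeR adjusted p for the replicate number 0.969).

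**Figure D2:**
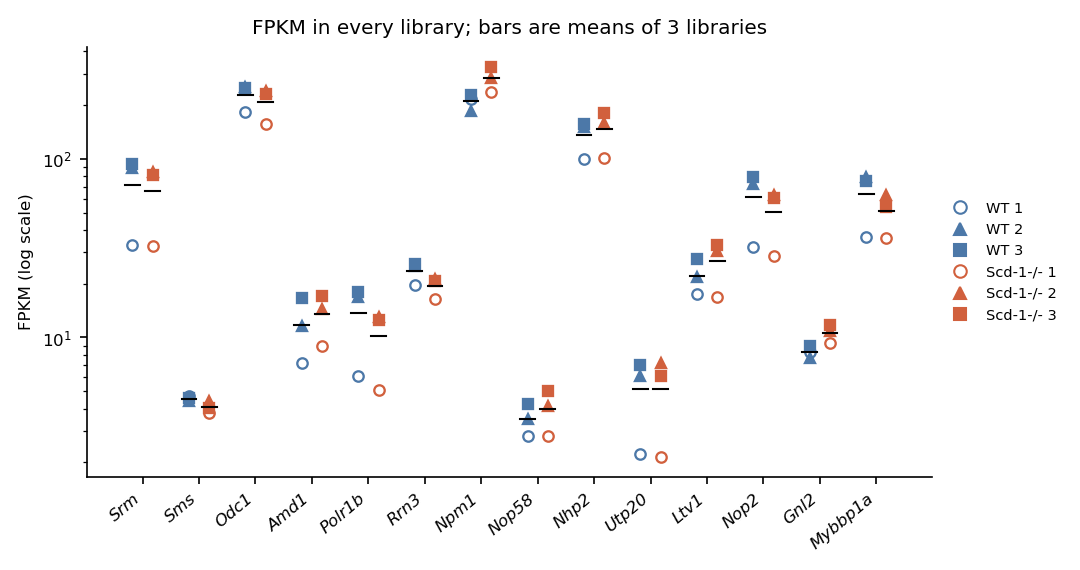
FPKM on a log axis of 14 members in each of the 6 libraries, WT in blue and Scd-1-/- in orange, with open circles for replicate 1, triangles for replicate 2, squares for replicate 3 and black bars for the mean of 3 libraries. The open circles lie below the filled symbols of the same genotype for 11 of the 14 genes, but not for Sms, Npm1 and Gnl2, and WT and Scd-1-/- circles lie side by side for Srm (32.8 and 32.3 FPKM) and Utp20 (2.23 and 2.14 FPKM).

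Among the Pol I genes, Rrn3, the initiation factor that ties Pol I to growth signals, had the smallest unadjusted p for genotype without the block. With the block, that of Polr1b was smaller. Rrn3 read 19.6, 25.2 and 25.95 FPKM in WT and 16.4, 21.2 and 20.8 FPKM in Scd-1-/- libraries. Each Scd-1-/- library was below the WT library of the same number, and the genotypes overlapped because replicate 1 of WT was under both later Scd-1-/- replicates (log2 fold change -0.25, SE 0.17, edgeR adjusted p = 0.678, and 0.207 with the block). Polr1b, the second largest subunit of Pol I, was chosen after its values were seen. Polr1b read 6.1, 16.8 and 18.02 FPKM in WT and 5.09, 12.96 and 12.5 FPKM in Scd-1-/- libraries. It was lower in Scd-1-/- Teff in every same-numbered pair, and its 95% interval ran from -1.46 to 0.67 without and from -0.62 to -0.11 with the block (edgeR adjusted p = 0.859 and 0.102). When replicates 2 and 3 alone were fitted, Polr1b passed the threshold, with a log2 fold change of -0.42 (edgeR adjusted p = 0.0465), and that fit called 12.6% of all genes, 6.07% as lower and 6.53% as higher.

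Polr1a, the largest subunit, and Ubtf, which binds the ribosomal DNA promoter, had replicate 1 as the lowest library in both genotypes. Polr1a read 4.14, 8.61 and 9.79 FPKM in WT and 4.21, 8.27 and 8.09 FPKM in Scd-1-/- libraries, and the values of Ubtf were 7.38, 15.2 and 15.7 FPKM and 7.84, 14.8 and 15.6 FPKM. Polr1c, a subunit that Pol I shares with Pol III, did not follow them, at 35.85, 38.4 and 29.2 FPKM in WT and 41.15, 28.1 and 32.7 FPKM in Scd-1-/- libraries.

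Npm1, nucleophosmin, a chaperone of the nucleolus, was the member with the smallest p for genotype. Npm1 read 217, 185.5 and 229 FPKM in WT and 239, 284 and 329 FPKM in Scd-1-/- libraries, or 211 ± 22.6 and 284 ± 45.35 FPKM on average (SD, n = 3). All 3 Scd-1-/- libraries were above all 3 WT libraries, although the lowest Scd-1-/- library exceeded the highest WT library only slightly. The log2 fold change was 0.46 (95% interval 0.10 to 0.81, edgeR adjusted p = 0.373), and with the block it was 0.45 (adjusted p = 0.0797). Npm1 passed the threshold in replicates 2 and 3 alone (0.60, edgeR adjusted p = 0.0208).

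Ncl, nucleolin, a shuttling RNA-binding protein of the nucleolus, was also higher in Scd-1-/- Teff in each same-numbered pair. Its levels were 39.4, 43.3 and 60.7 FPKM in WT and 50.4, 59.3 and 68.04 FPKM in Scd-1-/- libraries, the genotypes overlapped, and it was not called (log2 fold change 0.34, edgeR adjusted p = 0.601, and 0.0818 with the block). Nolc1, a chaperone of snoRNPs, was as closely tied to the replicate number as Srm, at 25.6, 61.6 and 67.9 FPKM in WT and 24.5, 60.2 and 61.3 FPKM in Scd-1-/- libraries. Tcof1, the Pol I cofactor treacle, read 20.8, 40.9 and 41.99 FPKM in WT and 25.7, 35.3 and 30.9 FPKM in Scd-1-/- libraries, with a wider gap in WT (1.93-fold) than in Scd-1-/- Teff (1.28-fold), a difference that was not tested.

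In the box C/D snoRNP, which places 2′-O-methyl groups, all 3 members had their lowest level in replicate 1. Fbl, the methyltransferase fibrillarin, read 169.5, 229 and 229 FPKM in WT and 137, 224 and 214 FPKM in Scd-1-/- libraries. Nop58, a core protein, had the smallest p for genotype of this role and read 2.79, 3.51 and 4.22 FPKM in WT and 2.802, 4.135 and 5.04 FPKM in Scd-1-/- libraries (log2 fold change 0.21, SE 0.24, edgeR adjusted p = 0.851). Its partner Nop56 gave 6.298, 13.8 and 14.7 FPKM and 6.804, 12.9 and 12.7 FPKM.

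In the box H/ACA snoRNP, the 4 proteins split. Dkc1, the pseudouridine synthase dyskerin, and Nhp2, an RNA-binding core protein, were lowest in replicate 1 of both genotypes. Dkc1 gave 6.14, 10.7 and 12.8 FPKM in WT and 5.12, 10.5 and 12.04 FPKM in Scd-1-/- libraries, and Nhp2 gave 100.4, 150.2 and 157 FPKM and 102, 159 and 181 FPKM. Gar1 lay at 15.4, 14.4 and 20.97 FPKM and 15.4, 17.5 and 14.2 FPKM, with the highest and the lowest library both being replicate 3. Nop10 was nearly constant in WT, at 84.1, 86.3 and 86.5 FPKM, and lower in replicate 1 of Scd-1-/- Teff alone, at 53.98, 93.3 and 99.7 FPKM. For none of the 4 was a difference by genotype called.

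The small subunit factors act on the early precursor particle and on the maturing small subunit. Utp20, a scaffold of the early particle, had the lowest replicate 1 levels relative to the other libraries of all members. Utp20 read 2.23, 6.1 and 7.045 FPKM in WT and 2.14, 7.23 and 6.08 FPKM in Scd-1-/- libraries, and replicates 2 and 3 lay 2.85-fold and 3.09-fold above replicate 1. The corresponding libraries of both genotypes were close, with a log2 fold change of 0.04 whose 95% interval was -1.16 to 1.23 without and -0.29 to 0.32 with the block. Ltv1, an export and maturation factor of the small subunit, had the smallest p of this role, with 17.4, 21.95 and 27.35 FPKM in WT and 16.9, 30.3 and 33.05 FPKM in Scd-1-/- libraries (log2 fold change 0.29, SE 0.28, edgeR adjusted p = 0.806). Rrp9, a protein of the U3 snoRNP that is needed for cleavage of the precursor, read 13.3, 23.5 and 23.5 FPKM in WT and 12.6, 22.7 and 21.04 FPKM in Scd-1-/- libraries. Like Rrp9, the assembly factors Nop14, Rrp12, Wdr75, Heatr1 and Bysl had replicate 1 lowest in both genotypes, and the gaps of these 6 ran from 1.42-fold (Bysl in Scd-1-/- Teff) to 2.198-fold (Heatr1 in Scd-1-/- Teff). Wdr43, a component of the early particle, had this in Scd-1-/- Teff alone (28.3, 25.4 and 33.97 FPKM in WT and 20.9, 33.2 and 38.8 FPKM in Scd-1-/- libraries).

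Among the large subunit factors, Bop1, Pes1 and Wdr12 form the PeBoW complex, which is needed to process the precursors of the large subunit RNAs. All of them were lowest in replicate 1 of both genotypes, but to different degrees. Bop1 read 39.1, 115.5 and 105.5 FPKM in WT and 42.6, 97.6 and 91.2 FPKM in Scd-1-/- libraries, a gap of 2.74-fold and 2.201-fold. Wdr12 showed 1.48-fold and 1.55-fold, and Pes1 1.23-fold and 1.202-fold. The gap of Pes1 was not called (edgeR adjusted p for the replicate number 0.146).

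Nop2, a methyltransferase of the large subunit RNA, was chosen after its values were seen. It read 32.3, 72 and 78.7 FPKM in WT and 28.7, 62.4 and 60.4 FPKM in Scd-1-/- libraries. Each Scd-1-/- library was below its WT counterpart, but replicate 1 of WT was under both later Scd-1-/- replicates, and the difference was not called (log2 fold change -0.24, edgeR adjusted p = 0.898, and 0.2001 with the block). Noc2l, a nuclear factor of large subunit assembly, had the same order, at 82.5, 142.5 and 131 FPKM in WT and 77.1, 109 and 107 FPKM in Scd-1-/- libraries (edgeR adjusted p = 0.7896 and 0.197).

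Of the other assembly factors, Nop16 followed the replicate number, at 16.05, 37.25 and 42.2 FPKM in WT and 20.01, 37.5 and 37.8 FPKM in Scd-1-/- libraries. Rrp1b had replicate 1 lowest in both genotypes with a smaller gap, at 4.83, 5.75 and 6.34 FPKM and 3.87, 5.24 and 5.27 FPKM, and was not called (edgeR adjusted p for the replicate number 0.1475). Rrs1, which helps to bring the 5S RNA into the large subunit, showed no such order, at 24.1, 19.7 and 26.05 FPKM in WT and 19.95, 26.2 and 23.6 FPKM in Scd-1-/- libraries.

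Gnl2, a GTPase that acts on large subunit precursors before export, was with Npm1 the other member whose genotypes did not overlap. Gnl2 read 8.315, 7.63 and 8.98 FPKM in WT and 9.26, 10.8 and 11.7 FPKM in Scd-1-/- libraries, with each Scd-1-/- library above each WT library. Its log2 fold change of 0.37 (95% interval 0.01 to 0.74) was not called (edgeR adjusted p = 0.476, and 0.138 with the block). These 2 of 42 members, both higher in Scd-1-/- Teff, stand beside 16.1% of all tested genes whose genotypes did not overlap, 8.4% with Scd-1-/- higher. Gnl3, nucleostemin, a related GTPase, gave 13.02, 21.6 and 29.8 FPKM in WT and 13.03, 26.96 and 28.6 FPKM in Scd-1-/- libraries and followed the replicate number instead.

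Of the remaining genes, Mybbp1a, a nucleolar partner of several transcription factors, read 36.4, 79.3 and 74.98 FPKM in WT and 36.02, 63.1 and 53.7 FPKM in Scd-1-/- libraries. The replicate 1 libraries were level and the later replicates were lower in Scd-1-/- Teff. The difference of -0.29 on the log2 scale was not called (edgeR adjusted p = 0.831, and 0.213 with the block). The RNA helicases Ddx21, which links Pol I transcription to rRNA processing, and Ddx18 differed by genotype by 0.13 and 0.01 on the log2 scale. Ddx21 read 42.97, 56.05 and 67.5 FPKM in WT and 44.4, 68.6 and 66.3 FPKM in Scd-1-/- libraries, and Ddx18 read 18.98, 24.3 and 27.8 FPKM and 16.1, 25.9 and 28.3 FPKM. Both were lowest in replicate 1 of each genotype.

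The same-numbered libraries of both genotypes were set side by side as a description. The median log2 ratio of the 42 members, Scd-1-/- over WT, was -0.04 in replicate 1, -0.02 in replicate 2 and -0.09 in replicate 3. A total of 16 members were lower and 7 were higher in Scd-1-/- Teff in all 3 pairs, or 38.1% and 16.67%, against 22.9% and 22.1% of all tested genes. None of them was called by genotype with or without the block. In replicates 2 and 3 alone 2 of them, Polr1b and Npm1, were called, by a fit that called 12.6% of all tested genes.

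More members were called for the replicate number than by genotype. A test of any difference between the 3 numbers, with genotype kept in the edgeR model and chosen after seeing the data, called 30 of the 42 members (71.43%), against 15.9% of all tested genes. All 30 had replicate 1 as the lowest library in both genotypes, and 7.44% of all tested genes were both called and lowest in replicate 1 in this way. Without regard to the test, replicate 1 was lowest in both genotypes for 34 members (80.95%, against 27.0% of all genes), and for 33 members both replicate 1 libraries were below all 4 others (21.1% of all genes). Replicate 1 was highest in both genotypes for 0 members, against 30.2% of all genes. These counts rest on TMM-scaled values, and on deposited FPKM 35 members had replicate 1 lowest, the added one being Nop10.

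**Figure D3:**
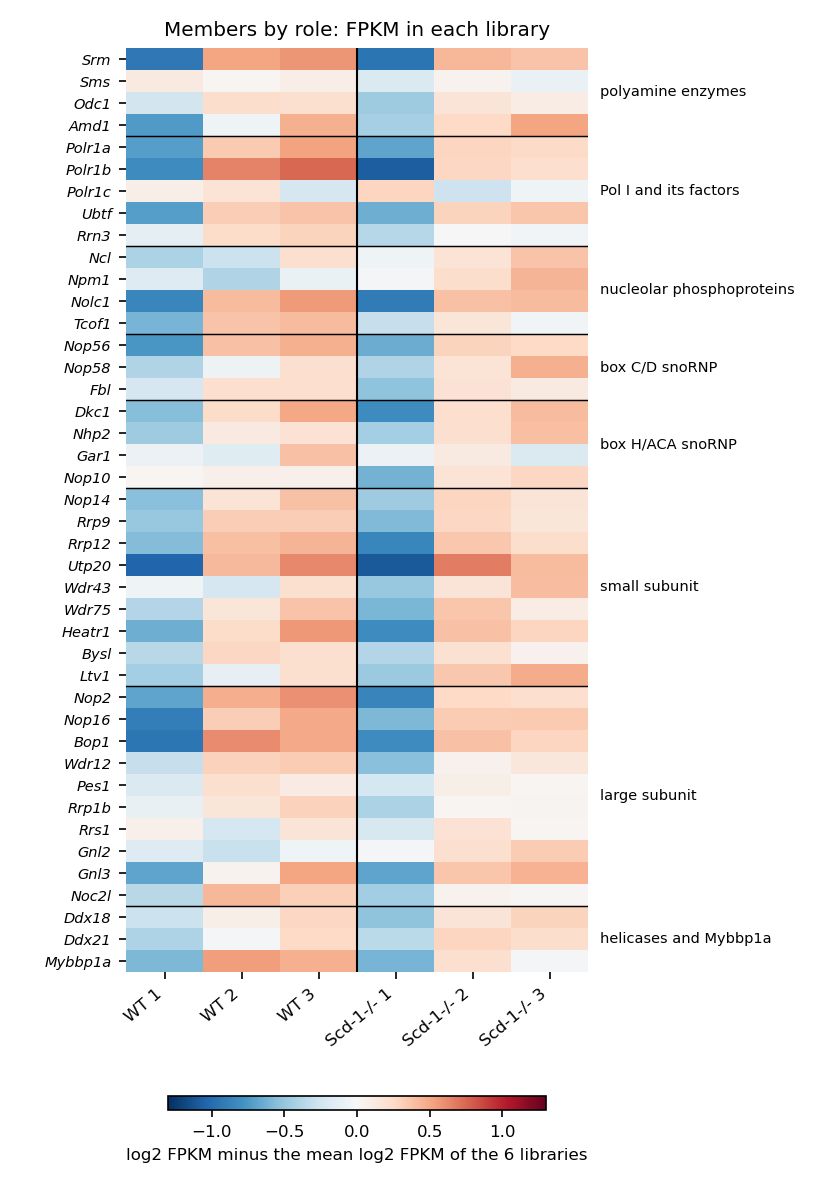
Log2 FPKM of the 42 members in the 6 libraries, each as the difference from the mean over the 6 libraries (blue below, red above), ordered by role. The columns of WT 1 and Scd-1-/- 1 are blue for most rows in every role, while WT and Scd-1-/- columns of the same number look alike apart from rows such as Npm1 and Gnl2.

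The gap to replicate 1 was present in both genotypes. The median gap between the mean of replicates 2 and 3 and replicate 1 was 0.58 in WT and 0.74 in Scd-1-/- Teff on the log2 scale, beside -0.02 and -0.006 over all tested genes. The median member stood at 0.753 of its mean over the 6 libraries in WT replicate 1 and at 0.711 in Scd-1-/- replicate 1, and at 1.16 to 1.22 in the other 4 libraries. Together the 42 genes took 0.528% and 0.531% of all counts in the replicate 1 libraries and 0.775% to 0.838% in the others. The gap in one genotype ran with that in the other, with Pearson's r of 0.803 and Spearman's rho of 0.821 across the 42 members. Over all 9627 tested genes r was 0.603 and rho 0.631. The genotypes share no library in this comparison, but genes are not independent replicates.

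**Figure D4:**
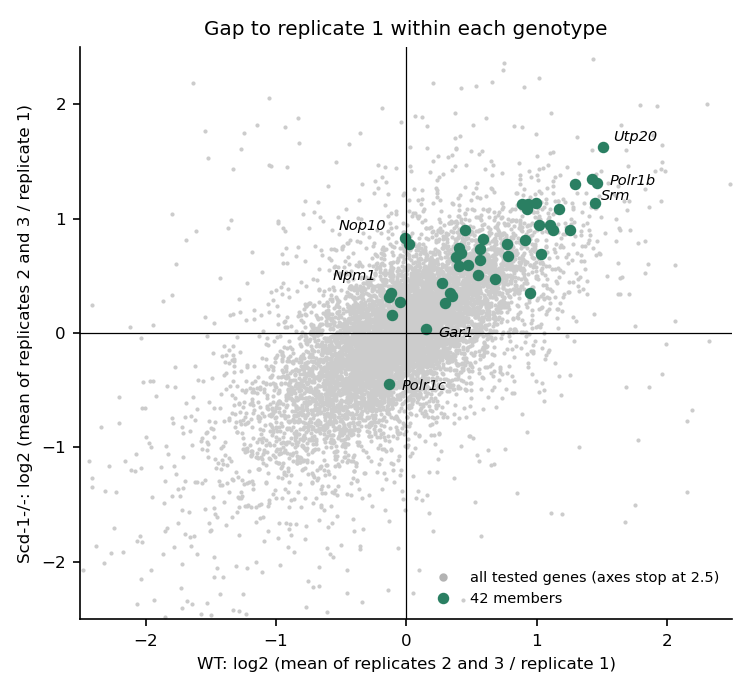
Gap between the mean of replicates 2 and 3 and replicate 1 in Scd-1-/- (vertical axis) against WT (horizontal axis), both as log2 ratios of TMM-scaled values, for the 42 members (green) over all tested genes (grey). Most green points lie in the upper right, up to Utp20 at 1.51 and 1.63, and Polr1c is the member below 0 on both axes.

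By role, the replicate number was called for 3 of 4 polyamine enzymes, 3 of 5 Pol I genes, 2 of 4 phosphoproteins, 3 of 3 box C/D and 2 of 4 box H/ACA proteins. It was called for 8 of 9 small subunit and 6 of 10 large subunit factors, and for both helicases and Mybbp1a, beside 15.9% of all tested genes. Differences between the roles were not tested. The 12 members without a call were Sms, Polr1c, Rrn3, Npm1, Tcof1, Gar1, Nop10, Wdr43, Pes1, Rrp1b, Rrs1 and Gnl2. Among them, Rrn3, Tcof1, Pes1 and Rrp1b still had replicate 1 as the lowest library of both genotypes. The count of 30 was between 28 and 31 under other scalings, minima and tools, and fell to 19 without WT replicate 2 or without Scd-1-/- replicate 1.

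Some marker lists also differed between replicate 1 and the other libraries. The 12 proliferation genes summed to 797 and 725 FPKM in the replicate 1 libraries of WT and Scd-1-/- Teff and to between 866 and 1011 FPKM in the others, and 3 of the 12 were called for the replicate number, Ccna2, Plk1 and Mcm2 (25%, beside 15.9% of all tested genes). Replicate 1 was lowest in both genotypes for 7 of the 12 (58.33%, beside 27.0%), among them Mcm5, the largest part of the sum (221, 311 and 264 FPKM in WT and 176, 216 and 196 FPKM in Scd-1-/- libraries). Mki67 had the other order and was highest in replicate 1 of both genotypes, at 13.3, 9.65 and 11.2 FPKM and 16.9, 12.7 and 15.97 FPKM. The 5 myeloid markers summed to 16.9 and 27.9 FPKM in replicate 1 and to between 7.90 and 9.75 FPKM in the others. Nearly all of that sum was Cd68, which was called for the replicate number (edgeR adjusted p = 0.0078), as were 15.9% of all tested genes. The defining markers Adgre1, Csf1r and Lyz2 were at 0 in replicate 1 of both genotypes. Itgam, the remaining myeloid marker, was low but highest in replicate 1, with 16, 0 and 5 counts in WT and 83, 13 and 16 counts in Scd-1-/- libraries. The summed CD8 T cell markers were 2379 and 2108 FPKM in replicate 1 and 1837 to 1921 FPKM in the others. Other markers had ranges that did not overlap between genotypes, as did 16.1% of all tested genes. Cd8a, a chain of the CD8 coreceptor, read 43.15, 47.6 and 47.05 FPKM in WT and 36.6, 27.9 and 33.7 FPKM in Scd-1-/- libraries (log2 fold change -0.46, edgeR adjusted p = 0.297, 0.06297 with the block and 0.0166 in replicates 2 and 3 alone). Its partner chain Cd8b1 overlapped between genotypes, at 329.9, 289.6 and 275 FPKM and 299, 202 and 215 FPKM, and was also called lower in replicates 2 and 3 alone (log2 fold change -0.40, edgeR adjusted p = 0.0382). That fit called 12.6% of all genes, 6.07% as lower. Cd3d, Cd3e, Cd3g and Trac, the rest of the list, were not called in that fit (log2 fold changes 0.10, -0.06, 0.14 and 0.07, edgeR adjusted p = 0.562, 0.6985, 0.401 and 0.702). Mcm5, like Cd8a, was lower in every Scd-1-/- library, and Mcm5 and Mcm2 were called lower in replicates 2 and 3 alone (edgeR adjusted p = 0.0443 and 0.0216). These were 2 of the 12 proliferation genes, and 0 of the 12 were called higher in that fit. Mki67 went the other way and was higher in Scd-1-/- Teff in each same-numbered pair, with overlapping genotypes. It was not called (log2 fold change 0.44, edgeR adjusted p = 0.468, 0.05095 with the block and 0.0525 in replicates 2 and 3 alone). The 4 natural killer markers summed to between 0.501 and 1.16 FPKM in WT and between 1.82 and 9.39 FPKM in Scd-1-/- libraries, nearly all Klrb1c in the latter, a gene given by its values alone because it averaged under 1 FPKM in WT. Cd79b, a marker of B cells, read 10.7, 9.41 and 10.25 FPKM in WT and 7.903, 3.13 and 3.68 FPKM in Scd-1-/- libraries (log2 fold change -1.02, edgeR adjusted p = 0.387, 0.0434 with the block and 0.00155 in replicates 2 and 3 alone). Ncr1, a defining natural killer marker, was at most 0.221 FPKM, and the 5 erythroid markers summed to at most 0.787 FPKM. The part of any of these in the levels of the members was not tested.

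The wider pathway was described from lists of genes without the members. Of 88 other ribosome biogenesis genes that were tested (89 with a row), 0 were called by genotype in edgeR, 3 had an unadjusted p under 0.05 as higher in Scd-1-/- Teff (5.42% of all genes) and 0 as lower (4.68%), and the median log2 fold change was 0.08. With the block 0 of the 88 were called, with 5 higher (11.3% of all genes) and 7 lower (11.2%) at an unadjusted p under 0.05, and replicates 2 and 3 alone called 3 higher (6.53%) and 3 lower (6.07%). The replicate number was called for 30 of the 88 (34.09%, beside 15.9% of all genes), of which 27 had replicate 1 lowest in both genotypes. These 30 were 16 of 35 other small subunit factors, 13 of 43 other large subunit factors and 1 of 10 further Pol I genes. That 1 was Cd3eap, a Pol I subunit, while the other 9, among them the Pol I selectivity factor subunits Taf1a to Taf1d, were not called.

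Around the polyamine enzymes, 0 of 16 tested genes were called by genotype and 3 for the replicate number (18.75%, close to the 15.9% of all tested genes). Oaz1, the antizyme that sends ornithine decarboxylase to degradation, read 33.2, 33.35 and 29.8 FPKM in WT and 34.5, 29.2 and 26.3 FPKM in Scd-1-/- libraries. Azin1, which blocks the antizyme, read 4.87, 4.92 and 5.36 FPKM and 4.39, 5.74 and 4.295 FPKM. The libraries of both genotypes overlapped for each (log2 fold changes -0.08 and -0.05, edgeR adjusted p = 0.9198 and 0.9535).

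Sat1, the acetyltransferase that starts polyamine catabolism, had a different layout. It read 9.98, 6.26 and 6.25 FPKM in WT and 9.85, 9.92 and 10.65 FPKM in Scd-1-/- libraries, so the replicate 1 libraries were level and the later WT replicates were lower. Sat1 was not called in all libraries (log2 fold change 0.45, SE 0.22, edgeR adjusted p = 0.557) and was called in replicates 2 and 3 alone (0.75, edgeR adjusted p = 0.0116). The 3 genes called for the replicate number were Mtap, which salvages the by-product of spermidine synthesis, Eif5a, and Smox, spermine oxidase. Mtap (13.85, 24.5 and 25.6 FPKM in WT and 14.3, 27.3 and 26.5 FPKM in Scd-1-/- libraries) and Eif5a (257, 429.6 and 437 FPKM and 269, 385 and 398 FPKM) were lowest in replicate 1. Smox, which breaks spermine down, ran the other way and was highest in replicate 1, at 8.52, 3.101 and 3.87 FPKM in WT and 8.465, 3.04 and 2.55 FPKM in Scd-1-/- libraries.

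Myc itself was not called by genotype and was lower in replicate 1. Myc read 7.31, 13.01 and 12 FPKM in WT and 7.53, 13.6 and 11.15 FPKM in Scd-1-/- libraries, with a log2 fold change of 0.03 (SE 0.27, edgeR adjusted p = 0.985), and it was called for the replicate number (edgeR adjusted p = 0.01315). The replicate 1 libraries of both genotypes were the lowest of the 6 and nearly level. By genotype, 0 of the 10 tested genes of the Myc network were called without the block (0.114% of all genes) and 1 with it (4.7%). Replicates 2 and 3 alone called 2 of the 10 as higher (6.53%) and 0 as lower (6.07%). Mycn, given below by its values alone, was among the calls of both of these fits. For the replicate number, 6 of the 10 were called, beside 15.9% of all tested genes. Max, the partner of Myc, and Mxd3 were lowest in replicate 1 like Myc. Mxd1, Mxd4 and Mnt, which compete with Myc for Max, were called and highest in replicate 1 of both genotypes, which held for 8.22% of all tested genes. Mxd1 read 3.64, 1.39 and 1.303 FPKM in WT and 4.87, 1.99 and 1.65 FPKM in Scd-1-/- libraries, and Mxd4 read 12.2, 5.06 and 5.67 FPKM and 15.02, 10.01 and 8.17 FPKM.

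Mycn, the neuronal Myc relative, is given by its values alone, since it averaged under 1 FPKM in WT and passed the minimum on FPKM only through the Scd-1-/- libraries. Mycn read 0.681, 0.768 and 0.468 FPKM in WT and 1.06, 3.204 and 2.31 FPKM in Scd-1-/- libraries, all at a low level. Of 18 other known Myc targets outside ribosome biogenesis, 0 were called by genotype with or without the block, and replicates 2 and 3 alone called 3 higher (6.53% of all genes) and 1 lower (6.07%). Of the 18, 11 were called for the replicate number (61.11%, beside 15.9% of all tested genes), all 11 with replicate 1 lowest. Cad, which starts pyrimidine synthesis, was among these 11, with 15.5, 38.98 and 35.9 FPKM in WT and 13.1, 28.6 and 21.7 FPKM in Scd-1-/- libraries.

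The order of levels among the members was read from FPKM, which is per length. Npm1, Odc1 and Fbl were the most abundant, with means of 247, 218 and 200.4 FPKM over the 6 libraries, and their ranges over libraries overlapped. Nop58, Sms and Utp20 were the least abundant, at 3.75, 4.32 and 5.14 FPKM, and their ranges overlapped too. The lengths used by the authors, recovered from counts and FPKM, exceeded the longest annotated transcript by more than 1.5 times for 18 of the 42 members, up to 4.21 times for Nop56 (15263 against 3627 bases). FPKM of these genes is lower by that factor than with the length of the transcript, and Nop56 moved from rank 33 to rank 19 of 42 when the longest transcript was used. Npm1 and Odc1 kept ranks 1 and 2, while Fbl went from 3 to 7. At the lower end, Utp20 went from 40 to 42, Nop58 from 42 to 41, Wdr12 from 38 to 40 and Sms from 41 to 39. Comparisons between libraries are not affected by gene length. The 42 genes lie on 19 chromosomes, 17 of them overlap exons of a gene on the other strand, and the strand setting of the counting was not given in the sources used here, so reads of such pairs cannot be told apart. SnoRNA genes lie inside 7 members, among them Nop56, Nop58, Ncl and Gnl3, and were not analysed here.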

How the data were processed

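The authors mapped the reads with HISAT2, counted them with StringTie 1.3.0 on GRCm38 and deposited, for each of 6 libraries, whole-number counts of 34745 genes without normalization. The authors also deposited FPKM, and counts divided by FPKM followed the library totals within 0.0018% over 9287 genes, so the TMM step named in the methods is not in the FPKM. The methods name a stranded total RNA kit, and the labels name poly(A) RNA and another kit. Columns of other samples numbered 0.

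Counts were tested with edgeR 4.0.16 (TMM scaling, quasi-likelihood F test) in R 4.3.3 over 9627 genes whose FPKM averaged 1 or more, with Benjamini-Hochberg adjustment over all of them and genotype as the only term. Alternatives were DESeq2 1.42.0, limma 3.58.1 on log2(FPKM + 1) or log2(FPKM + 0.1), no minimum or a minimum of 5, other scalings, the replicate number as a block, a term for replicate 1, replicates 2 and 3 alone, and each library left out. Scripts were tested on simulated counts. The replicate number was used as a block because both genotypes carry the numbers 1 to 3. Same-numbered libraries deviated together from their group means (r of 0.595, 0.306 and 0.470 for replicates 1, 2 and 3 over 9627 genes). Crossed replicates had r of 0.380 (WT 3 with Scd-1-/- 2) and 0.180 (WT 2 with Scd-1-/- 3). The former is above the 0.306 of replicate 2, so these values do not show that replicates 2 and 3 pair by number. The TMM factors lay between 0.986 and 1.03. Depth was 14034479 to 15866216 counts, and a count of 0 allows up to 3 counts (counting error only).

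The members and lists were chosen with earlier results of these data known. Values per library are given for the polyamine enzymes and, in each role, for members called with or without the block and the member with the smallest p. Myc, Oaz1, Azin1, Sat1, Scd1 and called genes of the lists are given as well. Other genes were chosen after their values were seen. Gene positions and transcripts are of GENCODE M21, promoter sequences of RefSeq. Riok2 was not analysed here.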

Additional observations from a re-analysis of the deposited data

How the results depend on the processing

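None of the 42 members was called by genotype (0 higher, 0 lower) under the other minima on FPKM, the other scalings, DESeq2, limma, the replicate block, the term for replicate 1 or any fit without 1 library. The exception was the fit of replicates 2 and 3 alone, with 1 member higher (Npm1, beside 6.53% of all genes) and 1 lower (Polr1b, beside 6.07%). The replicate block, fitted because both genotypes carry the numbers 1 to 3, gave a median log2 fold change of -0.06, as did the fit without it. Among the members and the pathway lists it changed no call other than that of Mycn, which is not counted as a result because Mycn passed the minimum on FPKM only through the Scd-1-/- libraries. Without each library in turn, the median log2 fold change of the members ran from -0.22 to 0.18. The count for the replicate number ran from 19 to 25. Directions of small differences turned in these fits: Srm from -0.43 to 0.23, Odc1 from -0.22 to 0.073, Amd1 from -0.022 to 0.53, Nhp2 from -0.037 to 0.35, Utp20 from -0.31 to 0.41, Nop2 from -0.54 to 0.037, Myc from -0.18 to 0.23, Oaz1 from -0.19 to 0.0062 and Azin1 from -0.20 to 0.024. Utp20 also turned in limma (-0.0044 with a pseudocount of 1, -0.0088 with 0.1), and Azin1 in replicates 2 and 3 alone (0.00011). The cause was not tested. The test of the replicate number, the scaling by library totals and the alternatives to both were chosen after seeing the data. With 3 libraries a group, an exact permutation test of 1 gene cannot give a p under 0.1.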

Other observations

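Nop53, a nucleolar factor of the large subunit that is also known as a growth suppressor, was highest in replicate 1 of both genotypes, at 161, 118 and 108 FPKM in WT and 158, 104 and 103 FPKM in Scd-1-/- libraries (edgeR adjusted p for the replicate number 0.01735). Riok1, a kinase of the small subunit, had the same order, at 25.95, 14.4 and 16.8 FPKM and 23.97, 16.4 and 19.9 FPKM (edgeR adjusted p = 0.0378), and so had Utp23, a factor of early rRNA cleavage, at 3.58, 2.06 and 2.44 FPKM and 4.095, 2.165 and 2.22 FPKM (edgeR adjusted p = 0.0379). These 3 were the only ones of the 30 called among the 88 other ribosome biogenesis genes with replicate 1 highest in both genotypes.

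Surf6, a nucleolar scaffold protein, was level in the replicate 1 libraries and lower in the later Scd-1-/- replicates, at 8.39, 8.13 and 6.93 FPKM in WT and 7.77, 4.09 and 4.23 FPKM in Scd-1-/- libraries. It was not called in all libraries (log2 fold change -0.52, edgeR adjusted p = 0.585) and was called in replicates 2 and 3 alone (-0.82, edgeR adjusted p = 0.0123). Tfrc, the transferrin receptor, was called in the same fit in the other direction, at 18.75, 21.3 and 28.8 FPKM in WT and 19.7, 35.8 and 39.1 FPKM in Scd-1-/- libraries (0.62, edgeR adjusted p = 0.02465). These genes were chosen after their values were seen.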
